A study of Danio rerio with 8 samples.

Results

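The cyp2x7, cyp2x10.2, gsta.1 and gstp2 genes encode enzymes of detoxification, 2 cytochrome P450s and 2 glutathione transferases, and they are described here in zebrafish embryos at 53 hours post fertilisation. They were taken by symbol from the authors' deposited table, which lists 1293 genes, so the members are 4 of 1293. RNA came from 4 pools of iqgap1-/- embryos that showed hemorrhage and from 4 pools of wild-type embryos. Both groups are whole-embryo RNA of the same stage, with 20 embryos per pool by the series' design text, whereas the extraction protocol in the labels speaks of single larvae. The labels give no allele name, strain or clutch for either group, and they do not say whether the pools came from separate crosses, so the p-values below measure the spread between these pools. Mutant embryos were also chosen for hemorrhage, so genotype and hemorrhage cannot be told apart here. In whole-embryo RNA, fewer cells of a type and less transcript per cell cannot be told apart either.

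Cytochrome P450s are heme-containing monooxygenases of the endoplasmic reticulum that add an oxygen atom to lipophilic substrates, the first phase of detoxification. Family 2, to which the cyp2x genes belong, holds many fish enzymes whose substrates are poorly known. Glutathione transferases act in the second phase and join glutathione to electrophilic compounds so that they can be exported. The alpha class (gsta) and pi class (gstp) are cytosolic enzymes, and in zebrafish pi-class genes are known targets of the Nrf2 transcription factor, which answers oxidative and electrophilic stress. In adult fish the liver and intestine are the main sites of both phases.

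The table holds only genes the authors had called as different between these groups, each with a deposited adjusted p of at most 0.04997 and an absolute log2 fold change of at least 0.5856. The presence and direction of the members in it are therefore a property of the authors' selection and not a result. Expected counts summed to between 354272 and 552331 per library over the listed genes alone; the depth of whole libraries is unknown. Values below are normalized counts, that is expected counts divided by a size factor per library. The mutated gene itself was measured at 1111, 970.0, 902 and 1245 normalized counts in mutant pools 1 to 4, against 2185, 2118, 2212 and 2115 in wild-type pools 1 to 4. The iqgap1 transcript was thus lower in every library labelled mutant, with no overlap.

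All 4 members were lower in the mutants: each had its 4 mutant pools below its 4 wild-type pools. Of all listed genes, 38.1% showed such a complete separation downwards, and 41.1% were lower and 58.9% higher in the authors' deposited table. Transcripts of cyp2x7 stood at 7.98% of the wild-type mean, those of gstp2 at 24.3%, those of cyp2x10.2 at 30.3% and those of gsta.1 at 40.1%. The edgeR quasi-likelihood test called 3 of the 4 as lower at an adjusted p under 0.05. Over all tested genes 29.3% were called lower, and 66.8% were called in either direction, so a call is common in this table. All 1126 tested genes had an unadjusted p under 0.05 in that test. It was run on the same libraries by which the genes had been selected. The edgeR p-values given here therefore describe size against spread and are no independent support for the members. The fourth member, gstp2, had too few reads to be tested under the count filter. An exact two-sided permutation test over the 8 libraries only restates the separation: any gene whose groups do not overlap reaches its smallest possible value, p = 0.0286, and the members stand in a table selected on this difference, so it gives them no support.

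**Figure D1:**
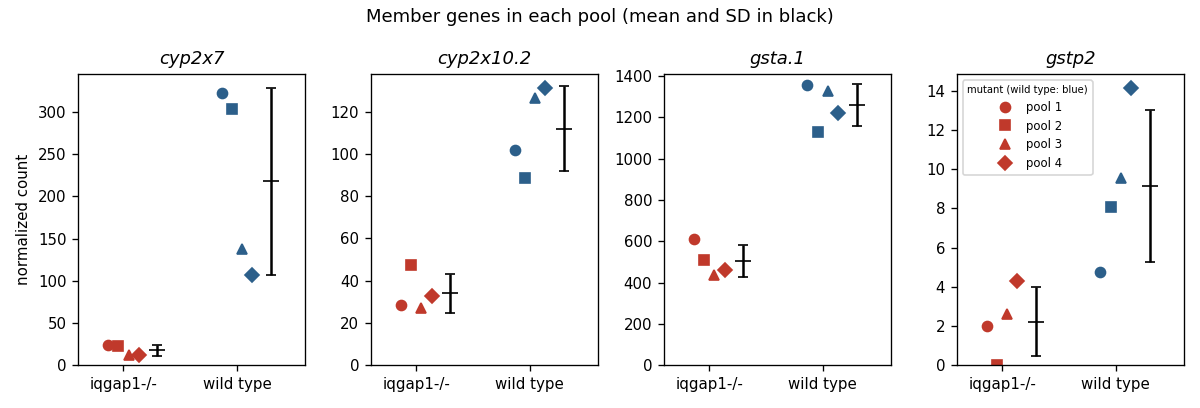
Normalized counts (vertical axes, starting at 0) of the 4 member genes in each iqgap1-/- pool (red, left) and each wild-type pool (blue, right), with marker shapes for the pool number and black bars for the mean ± SD. For cyp2x7, the wild-type pools lie at 322 and 304 for pools 1 and 2 and at 137 and 107 for pools 3 and 4, all above the highest mutant pool at 23.4.

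Among the P450s, cyp2x7 (ENSDARG00000044002) was measured at 23.4, 22.9, 11.5 and 11.7 normalized counts in mutant pools 1 to 4, against 322, 304, 137 and 107 in wild-type pools 1 to 4. The lowest wild-type pool was still 4.59 times the highest mutant pool. The means were 17.4 ± 6.69 in the mutants and 218 ± 111 in wild type (SD, n = 4 each). By the edgeR quasi-likelihood test the log2 fold change was -3.61 ± 0.42 (SE, adjusted p = 0.00100), or 12.3-fold lower in the mutants. The authors' deposited table gives -3.63, with an adjusted p of 1.80e-13.

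The evenness of cyp2x7 within wild type was low. Its highest wild-type pool was 3.00 times the lowest and the coefficient of variation was 51.0%. Over the 652 genes that averaged at least 50 normalized counts and had no wild-type pool at 0, the median ratio of highest to lowest pool was 1.38, and 90% of the genes had a ratio under 2.07. Only 23 of the 652 were more uneven than cyp2x7. All 652 were listed genes, selected as different between the groups, so this rank need not hold among unlisted genes. Pools 1 and 2 lay high and pools 3 and 4 low, and the lower of the first pair was 2.21 times the higher of the second. A separation in this direction of 2-fold or more was seen in 5 of the 652 genes, and the reverse one in 4. The mutant pools of cyp2x7 differed by 2.04 from highest to lowest, more than the 1.36 that was the median over genes. Here too pools 1 and 2 lay above pools 3 and 4. The expected counts in mutant pools 1 to 4 were only 24, 22, 9 and 11, so a few reads weigh on this ratio and this order. The labels do not pair pools of the same number across the groups, and correlations of same-numbered deviations were low, at -0.24 to 0.09. For cyp2x7 alone, a fit with the pool number as a block gave -3.60 ± 0.18 (SE, edgeR, adjusted p = 0.000145).

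**Figure D2:**
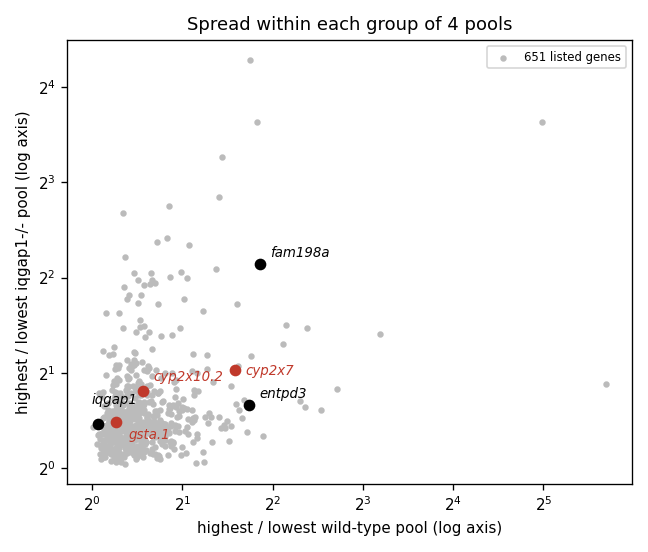
Ratio of the highest to the lowest pool within wild type (horizontal, log axis) and within iqgap1-/- (vertical, log axis) for the 651 genes that averaged at least 50 normalized counts and had no pool at 0. Red points mark cyp2x7 at 3.00 and 2.04, cyp2x10.2 at 1.48 and 1.75 and gsta.1 at 1.2 and 1.4, and black points mark other genes named in the text.

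Leaving out single libraries did not end the call of cyp2x7. Its log2 fold change lay between -3.84 and -3.36, with the weakest value without wild-type pool 1 and the strongest without wild-type pool 4 (edgeR, adjusted p between 0.000843 and 0.00629). Among the fits without a mutant pool, the log2 fold change ran from -3.79 (without mutant pool 1) to -3.46 (without mutant pool 4). The size of the fall thus depends on which pools of either group enter. Its direction and its call were the same in each of these fits.

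The second P450, cyp2x10.2 (ENSDARG00000068283), was measured at 28.3, 47.5, 27.2 and 32.9 normalized counts in mutant pools 1 to 4, against 102, 88.6, 127 and 131 in wild-type pools 1 to 4. The lowest wild-type pool was 1.86 times the highest mutant pool. Its means were 33.97 ± 9.37 in the mutants and 112 ± 20.2 in wild type (SD, n = 4 each), and in edgeR the log2 fold change was -1.71 with an SE of 0.22 (adjusted p = 0.00151). The wild-type pools of cyp2x10.2 were far more even than those of cyp2x7. Its highest to lowest ratio was 1.48, and 235 of the 652 genes were more uneven. The order of the pools was the opposite one, with pools 3 and 4 above pools 1 and 2.

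Both P450 rows carry a limit from near copies. The deposited symbol cyp2x10.2 stands beside an Ensembl identifier that the gene name table pairs with cyp2x10.1, so which copy the row counts is uncertain. None of the 8 expected counts of that row was a whole number, which is how RSEM, a program that divides shared reads between genes, reports reads it could not place in 1 gene. The cyp2x7 row had whole expected counts in 4 of 4 mutant pools and in 0 of 4 wild-type pools. Over all listed genes, 56.5% of the nonzero expected counts were whole, so counts that are not whole are common in this table.

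Of the transferases, gsta.1 (ENSDARG00000090228) was the most evenly measured member. It was measured at 611, 509.5, 438 and 460.0 normalized counts in mutant pools 1 to 4, against 1355, 1131, 1327 and 1221 in wild-type pools 1 to 4. Every wild-type pool was at least 1.85 times every mutant pool. The means were 505 ± 77.3 in the mutants and 1259 ± 103 in wild type (SD, n = 4 each), and edgeR's log2 fold change was -1.32 ± 0.13 (SE, adjusted p = 0.000362), or 2.49-fold lower. Its wild-type coefficient of variation was 8.17%, below the median of 14.3% over the 652 genes. The fall of gsta.1 was smaller than that of cyp2x7, but it stood out from a much smaller spread.

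The pi-class gene gstp2 (ENSDARG00000103019, named gstp1.1 in the current annotation) was scarce. Its expected counts were 2.04, 0, 2.04 and 4.06 in mutant pools 1 to 4, against 5.13, 8.11, 11.3 and 15.3 in wild-type pools 1 to 4. After scaling, the highest mutant pool (4.30 normalized counts) was just below the lowest wild-type pool (4.78). Summed over pools the rounded counts were 8 in the mutants and 39 in wild type, a depth-adjusted ratio of 0.240 with an exact 95% interval of 0.0968 to 0.521, which covers counting error only. Without the count filter, the log2 fold change of gstp2 was -1.99 ± 0.59 (SE) and did not pass the edgeR quasi-likelihood test (adjusted p = 0.144). The authors' deposited table gives -2.0 with an adjusted p of 0.0115. Its wild-type pools differed by 2.96 from highest to lowest, at a level where a few reads set the ratio, with the highest value in pool 4 and the lowest in pool 1.

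The evenness of the members therefore did not follow 1 common pattern of pools. Wild-type pools 1 and 2 were high for cyp2x7, pools 3 and 4 were high for cyp2x10.2 and gstp2, and gsta.1 varied little, with pool 1 highest and pool 2 lowest. The iqgap1 transcript, for comparison, differed by 1.05 between its highest and lowest wild-type pool.

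**Figure D3:**
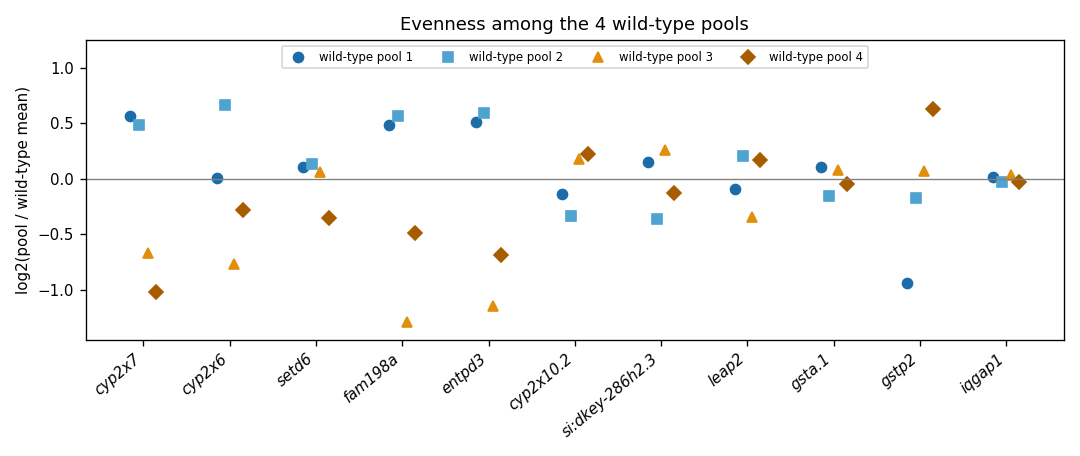
Log2 ratio of each wild-type pool to the wild-type mean (vertical axis) for the members, for listed genes next to cyp2x7 and cyp2x10.2 in gene order, for fam198a and entpd3, and for iqgap1; marker shape and colour give the pool number. Pools 1 and 2 lie above pools 3 and 4 for cyp2x7, cyp2x6, fam198a and entpd3, whereas gsta.1 and iqgap1 stay close to 0.

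The genes next to the members were examined because P450 and transferase genes lie in tandem clusters of copies. Gene order was read from the RefSeq annotation of GRCz12tu, which is not the build named for these files, so no coordinates are given. Of the 1293 listed genes, 67.8% could be placed in that order, which makes a count of listed neighbours a minimum and a comparison of densities along the genome void. Among the 5 protein-coding genes on either side, 2 of 10 were listed for cyp2x7, 3 of 10 for cyp2x10.2, 2 of 10 for gsta.1 and 0 of 10 for gstp2. Each of these listed neighbours had a negative log2 fold change in the deposited table, as had 41.1% of all listed genes.

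Directly beside cyp2x7 lies cyp2x6, a P450 of the same subfamily. Its expected counts were 0, 0, 1 and 1 in mutant pools 1 to 4, against 10.9, 16.1, 7 and 9 in wild-type pools 1 to 4. The count ratio of cyp2x6, mutant over wild type, was 0.0544 with an exact 95% interval of 0.00638 to 0.209. The count filter removed cyp2x6; without that filter edgeR estimated it at -3.93 ± 0.69 on the log2 scale (SE, adjusted p = 0.00831). Wild-type pools 1 and 2 of cyp2x6, at 10.17 and 16.0 normalized counts, lay above pools 3 and 4, at 5.94 and 8.30, the same division as in cyp2x7 but at few reads. The expected counts of cyp2x6 in wild-type pools 1 and 2, 10.92 and 16.05, were not whole. Reads shared with copies such as cyp2x7 may therefore enter its level and its division of pools, which was not tested. On the other side of cyp2x7, cyp2x8 and then cyp2x9 follow without a gene between them, and neither is in the table. The methyltransferase gene setd6, beyond cyp2x6, was also lower (-0.90 ± 0.19, adjusted p = 0.0276), with wild-type pools that differed by 1.4 from highest to lowest. It was not called without wild-type pool 1, 2 or 3 or mutant pool 2 or 4 (adjusted p between 0.0647 and 0.0963).

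The cyp2x10.2 gene lies on the same chromosome as iqgap1, with 23 protein-coding genes between them. Of the 100 genes nearest to iqgap1 in that order, 50 on each side, 5 were in the table. All 5 were called lower in the mutants and none higher. Over all tested genes 29.3% were called lower, and 41.1% of all listed genes were lower in the deposited table. The 5 include the member cyp2x10.2 itself, placed by its symbol, and the gene beside it, so they are not 5 separate results about this region. They were serinc4, which lies 3 genes away on one side and whose call was lost without wild-type pool 3 or 4 or mutant pool 2, 3 or 4 (adjusted p between 0.0533 and 0.0667), and leap2, si:ch211-122f10.4, cyp2x10.2 and si:dkey-286h2.3, which lie 19 to 25 genes away on the other. The antimicrobial peptide gene leap2 was measured at 13.7, 10.41, 3.84 and 6.36 normalized counts in mutant pools 1 to 4, against 45.6, 55.8, 38.2 and 54.4 in wild-type pools 1 to 4 (log2 fold change -2.45 ± 0.32, edgeR, adjusted p = 0.00168). The row si:dkey-286h2.3, for which RefSeq gives cyp2x12 as another name, is the next gene after cyp2x10.2. It was measured at 20.5, 16.0, 12.5 and 13.8 normalized counts in mutant pools 1 to 4, against 50.02, 35.0, 53.9 and 41.3 in wild-type pools 1 to 4 (log2 fold change -1.51 ± 0.24, edgeR, adjusted p = 0.00557). Its expected counts, from 9.76 in mutant pool 3 to 63.59 in wild-type pool 3, were not whole in any pool. Reads shared with copies may therefore enter this row as well. Embryos selected as homozygous for a mutation also share the chromosome around it. Whether that linkage has a part in the fall of cyp2x10.2 and its neighbours was not tested. The genes cyp2x7, gsta.1 and gstp2 lie on other chromosomes.

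**Figure D4:**
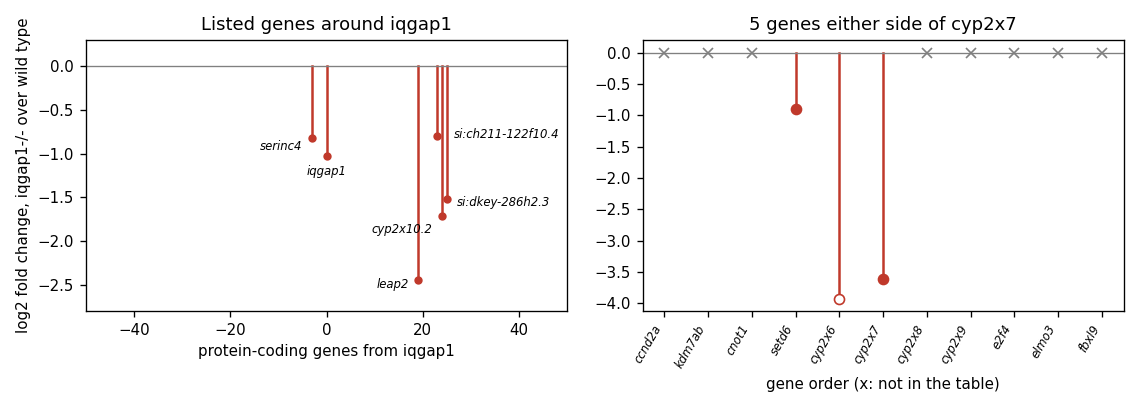
Log2 fold change, iqgap1-/- over wild type, by gene order: listed genes within 50 protein-coding genes of iqgap1 (left) and the 5 genes on either side of cyp2x7 (right; crosses are genes not in the table, the open circle is the value without the count filter). All 5 listed genes around iqgap1, the member cyp2x10.2 among them, lie below 0, from -2.45 to -0.80. On the right, cyp2x6 at -3.93 stands beside cyp2x7 at -3.61.

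Near gsta.1, the neighbouring copy gsta.2 is not in the table. The DNA polymerase eta gene polh, which bypasses DNA lesions, lies 3 genes away and was measured at 114, 114, 119 and 120 normalized counts in mutant pools 1 to 4, against 258, 272, 296 and 299 in wild-type pools 1 to 4 (log2 fold change -1.27 ± 0.10, edgeR, adjusted p = 0.000154). On the other side, the row BFSP1, a lens filament gene, had a log2 fold change of -1.36 ± 0.36 and did not pass the test (adjusted p = 0.0904). Its mutant pool 1, at 339 normalized counts, stood apart from the other mutant pools at 1280 to 1573, against 2559 to 3297 in the wild-type pools. BFSP1 was called lower without that pool (-1.06 ± 0.13, adjusted p = 0.00137), with RLE (-1.85, adjusted p = 0.00793), with TMM (-1.78, adjusted p = 0.0120) and with DESeq2 (adjusted p = 0.00514). RLE and TMM were computed over the listed genes alone and shifted the median gene by -0.45 and -0.38. The lower calls of BFSP1 gained under these 2 scalings therefore do not decide whether it fell. Next to gstp2 lies gstp1.2, the other pi-class copy, which is not in the table. None of the 8 expected counts of gsta.1 was whole, and 1 of the 8 of gstp2 was, the one at 0, so reads shared with copies may enter both rows.

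The 3 named genes most like each member over the 8 libraries were found by the root mean square difference of centred log2 values, a description without a test. For cyp2x7 they were fam198a (0.68), the elongation factor gene eef1a1l2 (0.75) and the ecto-nucleotidase gene entpd3 (0.77). Normalized counts of fam198a were 10.7, 8.33, 14.1 and 3.18 in mutant pools 1 to 4, against 232, 246, 67.9 and 118 in wild-type pools 1 to 4. Those of entpd3 were 7.81, 7.29, 11.5 and 10.6 in mutant pools 1 to 4, against 367, 388, 116 and 160.4 in wild-type pools 1 to 4. Because all 8 libraries, the wild-type pools included, entered the choice, a shared division of pools is partly built in. Both fam198a and entpd3 had pools 1 and 2 above pools 3 and 4 in wild type, as in cyp2x7, but eef1a1l2 did not. It stood at 102, 96.4, 125 and 99.4 normalized counts in mutant pools 1 to 4, against 918, 1595, 1792 and 1235 in wild-type pools 1 to 4. The genes fam198a and entpd3 are placed side by side by RefSeq (fam198a under the name gask1a). For cyp2x10.2 the closest were tes (0.23), the complement gene c3a.3 (0.30) and the secreted Wnt antagonist gene sfrp1b (0.30). For gsta.1 they were sfrp1b (0.14), the multidrug and toxin exporter gene slc47a1 (0.14) and pkd1a (0.16), and for gstp2 the cathepsin L-like gene ctsll (0.72), acyp1 (0.78) and the gelsolin gene gsnb (0.83). The matches of gsta.1 lay within 0.16, whereas those of cyp2x7 and gstp2 were looser, at 0.68 or more.

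Among the wider set of cytochrome P450s, lower and higher genes were both found. With si:dkey-286h2.3 counted as cyp2x12, the table holds 10 P450 rows, 6 lower and 4 higher in the deposited values, of which 4 were called lower and 2 higher. The 4 rows of the 2x subfamily were all lower, with 3 called and cyp2x6 removed by the filter. These rows are cyp2x7 and cyp2x10.2 themselves and the gene directly beside each, and cyp2x10.2 lies near iqgap1. Reads shared between copies may enter these rows, so they need not be separate falls. Of all tested genes 29.3% were called lower, and 41.1% of all listed genes were lower in the deposited table. The other 6 P450 rows divided into 2 lower and 4 higher. Of these, cyp2k8 and cyp2aa6, further family 2 enzymes, rose. Normalized counts of cyp2k8 were 183, 158, 163 and 137 in mutant pools 1 to 4, against 90.3, 87.0, 78.1 and 75.6 in wild-type pools 1 to 4 (log2 fold change 0.96 ± 0.13, edgeR, adjusted p = 0.00267). Those of cyp2aa6 rose by a log2 fold change of 0.76 ± 0.15 (adjusted p = 0.0155). Both calls depend on the scaling. RLE and TMM were computed over the listed genes alone, which were selected as different, so calls lost under them do not decide whether these genes rose. With RLE size factors cyp2k8 had 0.51 (adjusted p = 0.283) and cyp2aa6 0.31, with TMM 0.58 (adjusted p = 0.119) and 0.39, and neither was called, so that no P450 row was called higher with either. The call of cyp2aa6 was also lost without wild-type pool 1 or 4 or mutant pool 2 (adjusted p between 0.0515 and 0.0597). The gene cyp4v8, whose human counterpart is a fatty acid hydroxylase, fell (-1.26 ± 0.25, adjusted p = 0.0180), though not past the threshold without mutant pool 2 or 4 or wild-type pool 3 (adjusted p between 0.0503 and 0.0669). In mammals cyp1b1 oxidises estradiol and retinoids, cyp8b1 acts in bile acid synthesis and cyp46a1 hydroxylates cholesterol in the brain. Of their zebrafish rows, cyp1b1 (-0.64, adjusted p = 0.0547), cyp8b1 (1.04, adjusted p = 0.0718) and cyp46a1.1 (0.59, adjusted p = 0.103) did not pass. The call of cyp1b1 turns on the setting: it was called lower with RLE (-1.10, adjusted p = 0.00137), TMM (-1.03, adjusted p = 0.00252) and DESeq2 (adjusted p = 0.0163) and without the count filter (adjusted p = 0.0494). Lower calls gained with RLE or TMM carry the same limit of scaling and do not decide whether cyp1b1 fell. Without wild-type pool 1, cyp8b1 was called higher (adjusted p = 0.0273).

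The single other glutathione transferase in the table moved the opposite way to gsta.1. The microsomal enzyme gene mgst2 was measured at 829, 530.1, 686 and 686 normalized counts in mutant pools 1 to 4, against 423, 407, 337 and 301 in wild-type pools 1 to 4 (log2 fold change 0.90 ± 0.16, edgeR quasi-likelihood test, adjusted p = 0.0105). Its groups did not overlap, as was the case in 51.4% of listed genes in this direction. With median-of-ratios (RLE) size factors over the listed genes, mgst2 had a log2 fold change of 0.46 and was not called. Of 24 further transferase symbols looked for, mgst2 was the only one found, and the levels of the rest, among them gsta.2 and gstp1.2, were not analysed here.

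Over 6 lists of the pathway, chosen with earlier results of these data known, 16 of 231 symbols were in the table beside the members. The test called 8 of them higher and 3 lower, where 37.5% of all tested genes were called higher and 29.3% lower. Their median log2 fold change was 0.76 over the 15 tested, against 0.70 over all 1126 tested genes. The number of higher calls among them depends on how the groups are scaled. With RLE size factors, a shift of -0.45 for the median gene, and likewise with TMM (-0.38), 1 was called higher in place of 8, namely the forkhead gene foxq1a. Both scalings were computed over the listed genes alone, all selected as different and 58.9% of them higher. Scaling over such genes can remove a real shift, so calls lost under it do not decide whether the genes rose. Lower calls gained under it likewise do not decide whether genes fell. Of the sulfotransferases, which conjugate sulfate, sult2st2 fell (-0.62 ± 0.12, adjusted p = 0.0138) and sult1st5 rose (1.15 ± 0.27, adjusted p = 0.0475), while sult1st6 (-0.94) did not pass (adjusted p = 0.228; called lower with RLE, -1.38, adjusted p = 0.0440). The call of sult2st2 was lost without mutant pool 2 or 3 (adjusted p of 0.0605 and 0.0572), and that of sult1st5 without any 1 of the 8 pools (adjusted p between 0.0526 and 0.165). No glucuronosyltransferase of the list was in the table. Of 18 symbols for xenobiotic receptors and aryl hydrocarbon receptor targets, foxq1a was found, at a log2 fold change of 2.21 ± 0.14 (adjusted p = 2.54e-05). Of 48 symbols of the Nrf2 pathway and glutathione metabolism, 3 were found and all 3 rose: the small Maf gene mafk (1.07 ± 0.25, adjusted p = 0.0470), the malic enzyme gene me1 (0.62 ± 0.13, adjusted p = 0.0263) and the bile salt exporter gene abcb11b (1.26 ± 0.26, adjusted p = 0.0248). Their direction was shared by 58.9% of all listed genes in the deposited table, and none of the 3 was called with RLE or TMM. The calls of mafk and me1 were also lost without wild-type pool 1, 3 or 4 or mutant pool 2, 3 or 4 (adjusted p between 0.0594 and 0.171), and that of abcb11b without wild-type pool 3 or 4 or mutant pool 2 or 4 (adjusted p between 0.0881 and 0.0991). The members of that pathway that make or regenerate glutathione, such as gclc and gsr, were not in the table and were not analysed here.

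**Figure D5:**
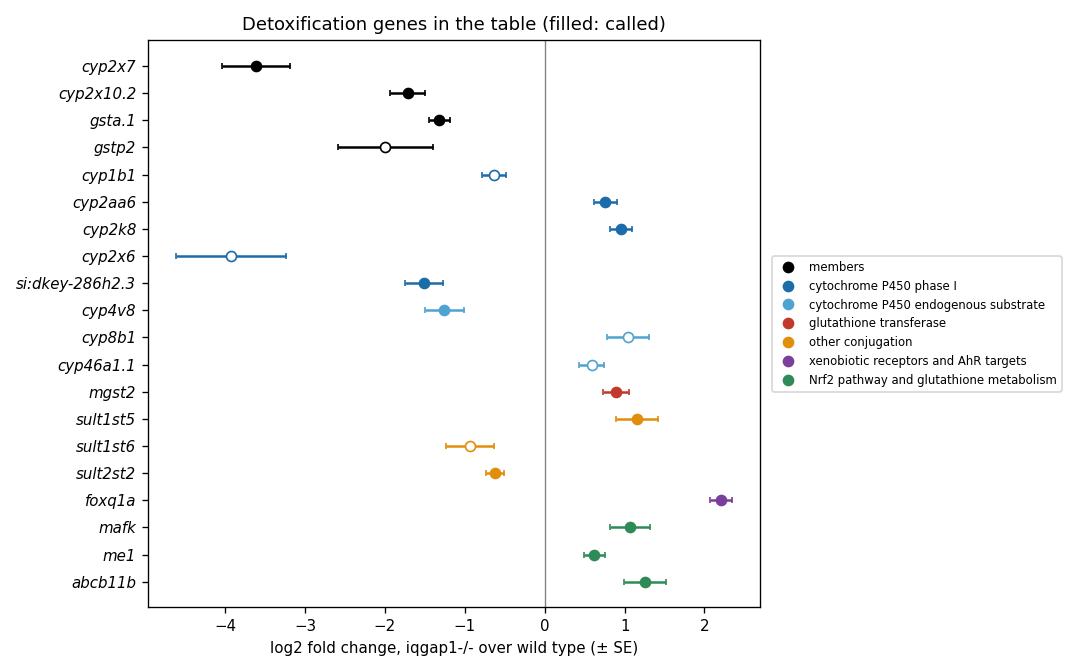
Log2 fold change, iqgap1-/- over wild type, with its SE (edgeR) for the 4 members and the 16 listed genes of the 6 pathway lists, coloured by list. Filled points were called at an adjusted p under 0.05; open points were not, or (gstp2 and cyp2x6) are values without the count filter. The members and the 2 other cyp2x rows lie at -1.32 or below, whereas mgst2 and the 3 genes of the Nrf2 list lie above 0.

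Markers of liver, intestine, exocrine pancreas, erythrocytes and yolk were set beside the members. Which of these tissues express the members was not measured here. Listed liver and yolk markers went both ways in the deposited table, while those of exocrine pancreas and erythrocytes were all higher. Of 38 liver symbols 4 were in the table. The secreted liver gene leg1.1 and the tyrosine catabolism gene hpda rose, the ceruloplasmin gene cp fell, and fabp10a, the hepatocyte fatty acid binding protein gene, was not called (1.23, adjusted p = 0.142). With RLE or TMM hpda was not called either (0.50 and 0.57, adjusted p of 0.381 and 0.184). The summed level of the 4 was 2729 to 3026 normalized counts in the mutant pools and 3288 to 4017 in the wild-type pools, most of it cp. None of 24 intestine symbols was in the table. Of 23 exocrine pancreas symbols 5 were listed, with sums of 202 to 262 in the mutants and 93.3 to 122 in wild type. Most of these sums was cpa5, with means of 162 in the mutants and 70.8 in wild type. Only 2 of the 5 had enough reads to be tested, and 1, cpa5, was called higher. With RLE it was not called. Of 28 erythrocyte symbols 25 were listed, all higher, with 23 called, against 37.5% of all tested genes called higher. With RLE 10 and with TMM 11 of them were called. Their sums were 166757 to 218160 in the mutants and 53814 to 87444 in wild type. Of 15 yolk and lipid export symbols 4 were listed, 3 lower and 1 higher in the deposited table. The test called 2 of them lower, against 29.3% of all tested genes, and without single libraries 0 to 3 were called. The higher one, selenop, had 682 to 1040 normalized counts in the mutant pools and 171 to 526 in the wild-type pools. It was not called (edgeR, adjusted p = 0.0526). The sums of the 4 were 18241 to 25072 in the mutants and 26165 to 36729 in wild type. No listed marker of these lists with a level of 0 in all pools of a group was found, and the part of any of these tissues in the fall of the members was not tested.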

How the data were processed

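The deposited table gives 1 value per library and the authors' log2 fold change, linear fold change, p-value and adjusted p-value, per the file headers. The submitters' processing notes name Trimmomatic, STAR 2.7 and RSEM with danRer11; the sources used here give no settings, strand or comparison tool. The deposited values are expected counts, each multiplied by 1 of 8 factors (0.9784 to 1.0252) in a cyclic order along each row. Dividing the factors out made all 10152 nonzero values multiples of 0.01, and the steps returned all 1293 genes on simulated data. Library depth is unknown, and intervals cover counting error only.

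Rounded expected counts were tested with edgeR 4.0.16 (R 4.3.3) after filterByExpr (minimum count 10), which left 1126 genes. The SE of an edgeR log2 fold change was derived from the test, as its absolute value over the square root of the F statistic. It therefore restates the test and is not a separate estimate. Size factors were medians of ratios within each group, with 1 offset between groups (-0.236, log2) that matched the authors' log2 fold changes. Benjamini-Hochberg adjustment ran over the 26889 genes the authors had adjusted over, the unlisted ones at p = 1, with a threshold of 0.05. In simulated libraries 200 of 1293 genes, all above a count floor, were changed between mutants and wild type. Of these, 100% of 4-fold, 44.8% of 2-fold and 2.99% of 1.5-fold changes were recovered. The real listed genes were all selected as different, so these shares need not hold for them. The plan had given the same edgeR test. Permutation tests used log2(normalized count + 0.5) and scipy 1.17.1. Alternatives were RLE and TMM scaling, DESeq2 1.42.0, a fit of unfiltered counts, the replicate number as a block, leaving out single libraries, and the deposited values as they stand. Named genes were the members, the table's genes of the pathway lists, the 3 nearest profiles (mean of 50 or more), gene neighbours and iqgap1. Members and lists were chosen with earlier results of these data known. Gene names came from the Ensembl and RefSeq (GRCz12tu) name tables; protein and promoter sequences were not used here.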

Additional observations from a re-analysis of the deposited data

Results flagged for a closer look

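The highest or lowest pool of each group of 4 was set against the other pools for the 4 members and the 16 listed pathway genes, 40 comparisons in all, where chance gives about 2. One stood apart: sult1st5 had 7.98 normalized counts in wild-type pool 2 and 15.8 to 16.6 in the other wild-type pools. No member had a single pool that stood apart in this way; the wild-type values of cyp2x7 fell into 2 high and 2 low pools.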

How the results depend on the processing

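The calls of cyp2x7, cyp2x10.2 and gsta.1 and their direction were the same in every alternative run, with log2 fold changes of -4.05 to -3.36, -2.18 to -1.62 and -1.76 to -1.26. The lowest end of each range came with RLE. RLE and TMM shifted the median gene by -0.45 and -0.38, which moves lower genes further down. A lower call kept under these 2 scalings is therefore no added support. Without single libraries they were -3.84 to -3.36, -1.93 to -1.62 and -1.42 to -1.26. gstp2 was not called in either fit that tested it (-2.05 with DESeq2, adjusted p = 0.212). 3 members were called in each alternative. The difference of mean log2 values of gstp2 was -2.12 with a pseudocount of 0.5 and -0.96 with one of 5, so its size rests on that choice. The replicate numbers did not pair the pools over genes at large (correlations of same-numbered deviations -0.24 to 0.09). With them as a block, 542 genes were called in place of 752. The adjusted p rose for cyp2x10.2 (-1.72, adjusted p = 0.0127) and gsta.1 (-1.33, adjusted p = 0.00292) and fell for cyp2x7 (-3.60, adjusted p = 0.000145).

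The scale between groups set the number of higher calls: 130 (RLE) and 162 (TMM) genes were called higher in place of 422. The counts for lists given here leave out the members. Erythrocyte calls were 10 and 11, pathway calls higher 1 and 1, Nrf2 calls 0 and 0 and transferase calls 0 and 0. Pancreas calls were 0 (RLE) and other conjugation calls 1 (TMM). Both scalings were computed over listed genes selected as different, 58.9% of them higher, so lost calls do not decide whether genes rose. Lower calls gained under them likewise do not decide whether genes fell. With RLE, DESeq2 or no filter 5 pathway genes were called lower in place of 3. With DESeq2 or no filter 5 phase I P450s were called in place of 3, with DESeq2 4 yolk genes in place of 2, and with no filter 2 pancreas genes in place of 1. With the block, 3 pathway genes were called higher, and 0 of the other conjugation and Nrf2 lists. Without single libraries the table had 538 to 799 calls (233 to 321 lower, 305 to 478 higher). The lists then had 2 to 3 (phase I), 0 to 2 (endogenous P450s), 0 to 1 (other conjugation), 0 to 3 (Nrf2), 1 to 2 (pancreas), 21 to 25 (erythrocyte) and 0 to 3 (yolk) calls, and the pathway 3 to 7 higher and 1 to 3 lower. The cause of these moves was not tested.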

Other observations

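Besides cyp2x7 and entpd3, the genes in which wild-type pools 1 and 2 exceeded pools 3 and 4 by 2-fold or more were the clone-named rows CABZ01067657.1 (2.49), si:dkey-286j17.4 (2.55) and si:ch211-149a19.3 (3.26), each value being the lower of pools 1 and 2 over the higher of pools 3 and 4. They were picked out after their values were seen. Over the 652 genes compared, pools 1 and 2 both lay above pools 3 and 4 in 167 genes and both below in 158, so a division of this kind in either direction was common, while one of 2-fold or more was seen in 5 and 4 genes. Within the mutant pools, cyp2x7 in pools 1 and 2 averaged 2.00 times pools 3 and 4, against 2.56 times within wild type. The mutant value rests on few reads, with expected counts of 24, 22, 9 and 11 in pools 1 to 4.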
